A study of Oryza sativa with 16 samples.

Results

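The comparison described here is that of h4.v KO seedlings with WT seedlings when both were raised on salt, and it covers 4 of the 16 libraries of the study, 2 of each genotype. The members were chosen by their labels alone. Both genotypes are Pusa Basmati 1 (PB1), an indica rice, and both were grown for 20 days (5 in darkness and 15 in light, as the labels give it; the study's methods state a younger age) on medium holding 120 mM NaCl throughout growth. The h4.v KO plants are a single Cas9-made mutant line of the histone H4 variant gene H4.V, with no integrated transgene, so a difference between genotypes cannot be told apart from a difference between this line and its WT. The 4 seedling libraries grown without NaCl, 2 of WT and 2 of h4.v KO, are given beside them, and the remaining 8 libraries come from leaves of WT and of lines that over-express H4.V, canonical H4 or their chimera. All were sequenced from poly(A) RNA, and series and labels describe the 2 libraries of a group as biological replicates.

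Histone H4 is a core component of the nucleosome, and in most organisms its genes encode the same protein, so that variants of H4 are rare compared with variants of H2A or H3. A variant histone can change how a nucleosome wraps DNA or which of its residues can be modified, and so bears on which genes are transcribed. Salinity imposes osmotic and ionic stress on rice seedlings, and plants answer it with broad changes in transcription.

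Expression values are FPKM, fragments scaled to transcript length and to the mapped fragments of the library, and differences are given on the log2(FPKM + 1) scale as h4.v KO with salt minus WT with salt. The tables hold gene identifiers and positions but pair no identifier with a name or a function, so only 4 genes are given by identifier and the others by position on the IRGSP1.0 genome, as the span of the whole annotated gene. For the same reason neither the tissue nor a gene family could be checked by markers. H4.V itself (Os05g0462900 by position, chromosome 5, 22743760 to 22744188) was listed at 0 FPKM in all 8 seedling libraries, WT included, so its expression does not check the genotype labels. Depth relative to WT without salt replicate 1, derived from the confidence bounds in the tables, was 0.754 and 0.847 in the WT libraries with salt and 1.04 and 0.871 in those of h4.v KO. In h4.v KO with salt replicate 2, 7.54% of the FPKM lay in loci under 300 bp, against 1.32% to 1.69% in the other 3 libraries with salt. A value of 0 can be a locus that Cufflinks did not assemble, and such a gene is said to be listed at 0. Where a difference or an interaction is given for a gene with a group at 0, its size rests on the added 1 FPKM.

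Salt-grown h4.v KO and WT seedlings differed strongly at few genes. The RNA came from whole seedlings as far as the labels state, so fewer cells that express a gene and less RNA per cell cannot be told apart. Over the 13935 genes tested, the median absolute difference with salt between the genotype means, each of 2 libraries, was 0.19. Between the 2 single replicates within each genotype it was 0.14. The latter is not averaged over libraries and so carries more of the spread, and the 2 values are not like measures. Of these genes, 102 (0.732%) were DEGs at the study's cut-offs, an unadjusted p under 0.05 in limma and an absolute log2 difference over 1.5, with 62 (0.445%) higher and 40 (0.287%) lower in h4.v KO with salt. A false discovery rate of 0.05 (limma, Benjamini-Hochberg) was met by 331 genes (2.38%), 149 higher (1.07%) and 182 lower (1.31%), and these are called changed. Both criteria were met by 63 genes, 39 higher and 24 lower. The remaining 268 changed genes differed by less than the fold cut-off, and the median absolute difference of the 331 was 0.82. Without salt the same fit gave 830 DEGs (5.96%) and 4748 changed genes (34.1%), and the median absolute difference between genotypes was 0.36.

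The share of genes called changed rose with the level of the gene. Among the 4567 genes whose higher group mean was under 5 FPKM, 32 were DEGs (0.701%) and 54 were changed (1.18%), with a median absolute difference of 1.38 in the changed genes. Among the 730 genes at 100 FPKM or more, 2 were DEGs (0.274%) while 53 were changed (7.26%), by a median of 0.55. These medians are of genes that had passed the false discovery rate. Where the spread is wide only large differences pass, so no dependence of effect size on level is read from them. Changed genes were more often lower than higher in h4.v KO between 5 and 20 FPKM (71 lower, 40 higher) and between 20 and 100 FPKM (64 and 49), whereas at 100 FPKM or more 32 were higher and 21 lower. Scaling the libraries by median of ratios moved the median difference over all genes from -0.05 to 0.00 and the split of changed genes from 149 higher and 182 lower to 185 higher and 143 lower, so the direction of the majority depends on the scaling.

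**Figure D1:**
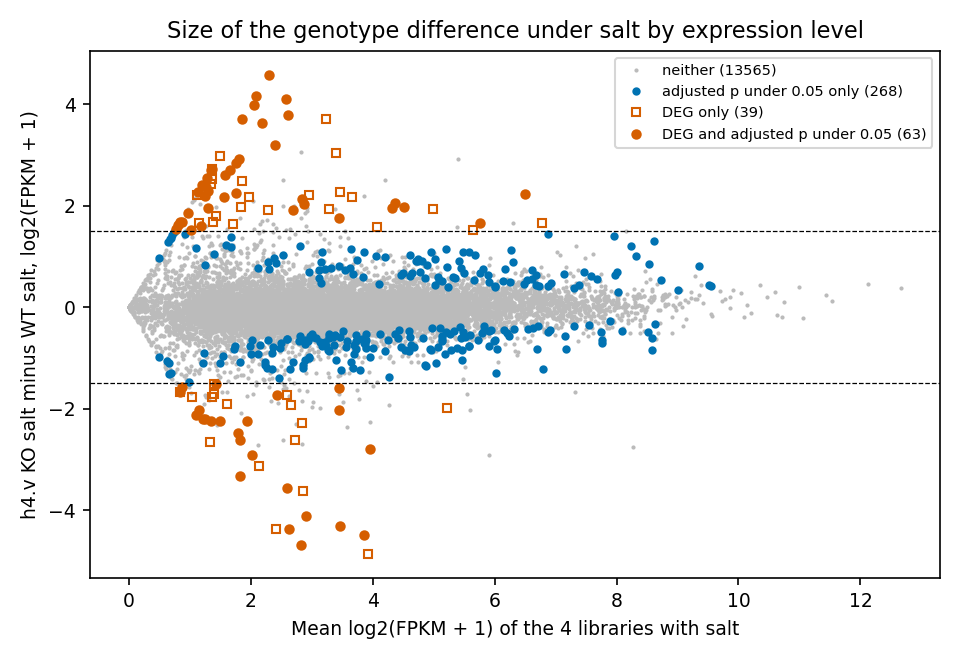
Difference between h4.v KO and WT with salt on the log2(FPKM + 1) scale (y axis) against the mean of the 4 libraries with salt (x axis) for the 13935 genes tested. Dashed lines mark the cut-off of 1.5. Filled orange points are the 63 DEGs with an adjusted p under 0.05, open squares the 39 other DEGs and blue points the 268 genes changed below the cut-off, and the blue points lie closer to 0 at high levels.

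Among DEGs that were also changed, most of the largest falls were genes that every other seedling group expressed and h4.v KO with salt nearly lacked. An exception, on chromosome 12 (26960487 to 26961383), fell by -3.56 with salt and is given below. Without salt it had 3.15 and 3.58 FPKM in WT and 0 and 2.41 in h4.v KO. Os12g0555200 (chromosome 12, 22591681 to 22593505) had 36.4 and 33.2 FPKM in the WT libraries with salt and 0.461 and 0.331 in those of h4.v KO. Without salt it had 42.8 and 43.8 FPKM in WT and 159 and 180 in h4.v KO, so the genotypes were in the opposite order there. The difference with salt was -4.68 (SE 0.10, limma adjusted p = 3.71e-05), that without salt 1.94 (adjusted p = 6.8e-05), and the interaction of genotype and salt -6.62 (adjusted p = 3.1e-05). Os01g0150000 (chromosome 1, 2707624 to 2711422) had 68.6 and 66.4 FPKM in WT with salt and 1.55 and 2.59 in h4.v KO with salt. Its other 4 libraries were close to those of WT with salt, at 77.7 and 75.6 FPKM in WT and 92.7 and 84.6 in h4.v KO without salt. Its difference with salt was -4.50 (SE 0.16, limma adjusted p = 0.000269), against 0.21 without salt.

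**Figure D2:**
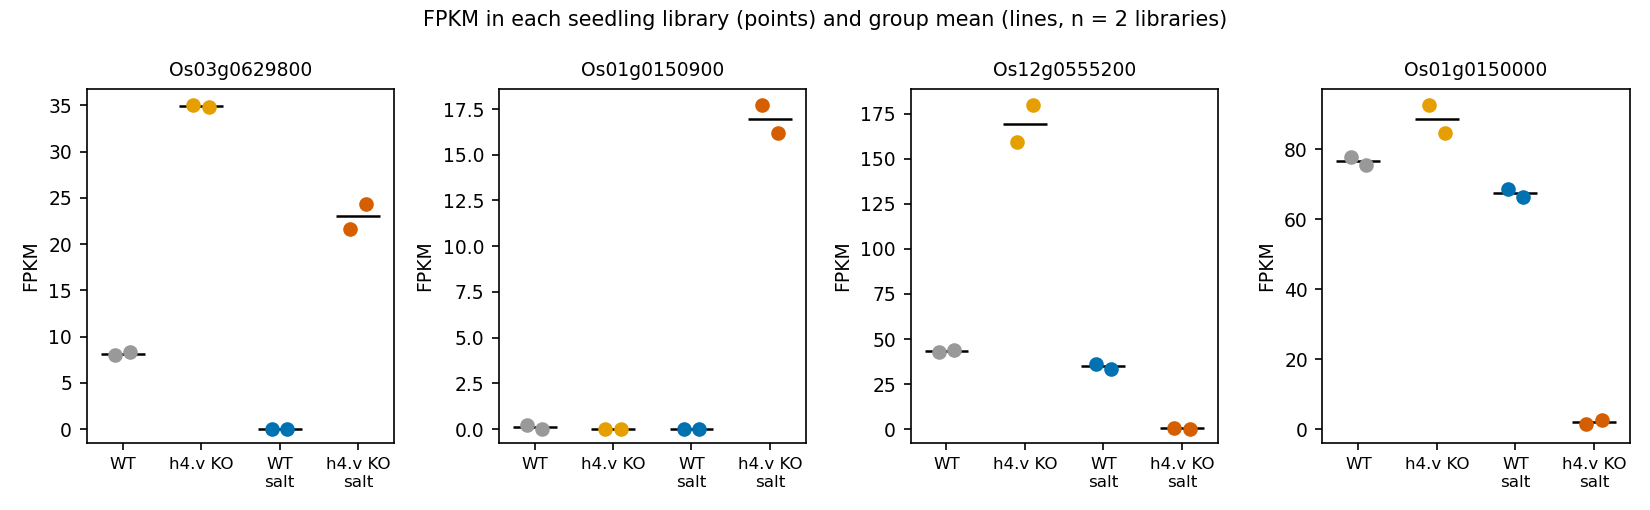
FPKM (y axis) of the 4 genes given by identifier in each seedling library, with WT and h4.v KO without and with salt along the x axis. Points are libraries and lines the means of 2. Both libraries of salt-grown h4.v KO are the highest of the 8 for Os01g0150900 and the lowest for Os12g0555200 and Os01g0150000, and both WT libraries with salt are at 0 for Os03g0629800.

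The same near absence in salt-grown h4.v KO was seen at further genes. The gene on chromosome 8 (11437989 to 11440989) had 28.4 and 25.9 FPKM in WT with salt and 0.344 and 0.382 in h4.v KO with salt (difference -4.36, limma adjusted p = 4.75e-05), with 23.0 to 38.5 FPKM in the 4 libraries without salt. On chromosome 12, a gene at 9350914 to 9365572 had 48.0 FPKM in both WT libraries with salt and a mean of 1.46 in h4.v KO with salt (SD 0.0568, n = 2), a difference of -4.32 (limma adjusted p = 0.000484). Without salt its level was 57.3 to 87.6 FPKM. A gene near the start of chromosome 10 (655625 to 658866) had 29.5 and 30.9 FPKM in WT with salt and 0.698 and 0.912 in h4.v KO with salt (difference -4.11, limma adjusted p = 8.42e-05), whereas without salt h4.v KO reached 71.2 and 72.6 FPKM, above the 42.6 and 35.9 of WT. At chromosome 6 (3759843 to 3762120) the values were 10.4 and 9.86 FPKM in WT and 0 and 0.23 in h4.v KO (difference -3.33, limma adjusted p = 0.00106). These libraries do not overlap between genotypes at any of the genes, as holds for all 102 DEGs and for 51.5% of the genes tested.

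Of the 40 lower DEGs, 20 fell into a class in which the 3 other group means spanned at most 1 unit of log2 and h4.v KO with salt lay more than 1 below them all. The classes were set after the values were seen and describe the DEGs without testing them. Over all 13935 genes tested, h4.v KO with salt lay below the 3 other group means in this way at 60. DEGs were chosen by the gap between the 2 groups with salt, which favours classes in which 1 of these stands apart. No excess of such genes is read from the counts. The 20 had a median of 9.47 FPKM in WT with salt, 9.98 in WT and 11.3 in h4.v KO without salt, and 0.596 in h4.v KO with salt, and 15 of them were changed. Both h4.v KO libraries with salt were below 1 FPKM in 25 of the 40, and 632 of all genes tested had both below 1, compared with 556 for WT with salt. At 7 genes both h4.v KO libraries with salt were below 1 FPKM while all other 6 seedling libraries exceeded 5. The same relation held at 8 genes for WT without salt, 6 for WT with salt and 2 for h4.v KO without salt. For 2 of the 7, on chromosome 11 (16929500 to 16937094) and chromosome 6 (5677157 to 5682033), the call was lost when single libraries were left out. Such a fit also holds fewer libraries. The first had 8.15 and 7.38 FPKM in WT and 0.41 and 0.436 in h4.v KO with salt (limma adjusted p = 0.0125), and its adjusted p was 0.0509 to 0.0552 with any 1 of the 4 libraries left out. The other had 6.99 and 7.58 FPKM against 0.724 and 0.781 (limma adjusted p = 0.011), and its adjusted p was 0.0502 without WT with salt replicate 2.

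Among DEGs higher in h4.v KO, the commonest class had a low level in WT with salt. Its level in h4.v KO with salt was near that of both genotypes without salt. At 54 of all genes tested, WT with salt lay more than 1 unit of log2 below the other 3 group means. These 3 means spanned at most 1 unit. The class held 25 of the 62 higher DEGs, and 21 of the 25 were changed. Their median was 0.342 FPKM in WT with salt, 5.92 in WT and 8.08 in h4.v KO without salt, and 6.4 in h4.v KO with salt. On chromosome 8, a gene at 17818457 to 17820510 had 0.581 and 0.717 FPKM in WT with salt and a mean of 21.8 in h4.v KO with salt (SD 1.11, n = 2), a difference of 3.79 (limma adjusted p = 0.00171), against 17.9 to 37.6 FPKM in the 4 libraries without salt. On chromosome 7, at 12926512 to 12930673, WT with salt had 0.89 and 0.577 FPKM and h4.v KO with salt 15.0 and 14.9 (difference 3.21, limma adjusted p = 0.00032), with 13.6 to 18.4 without salt. On chromosome 10, at 17374458 to 17378953, the values were 0.253 and 0.262 in WT and 8.03 and 8.12 in h4.v KO with salt (difference 2.85, limma adjusted p = 0.000269). Its libraries without salt, at 6.65 to 8.49 FPKM, were close to those of h4.v KO with salt. The genotype difference without salt was 0.50 or less in each of these 3 genes, and their interaction had an adjusted p of 0.0014, 0.00027 and 0.00021.

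The highest level in this class was reached by a gene on chromosome 9 (920635 to 926008), picked after its values were seen. It had 45.5 and 36.1 FPKM in WT with salt and 195 and 193 in h4.v KO with salt, against 124 and 124 in WT and 94.1 and 107 in h4.v KO without salt. The difference with salt was 2.23 (limma adjusted p = 0.00106) and that without salt -0.31. Of the 2 DEGs at 100 FPKM or more, this was the 1 that was also changed. Low values in WT with salt were frequent in the higher DEGs: both WT libraries with salt were below 1 FPKM in 35 of the 62, and both were listed at 0 in 14. These are also the libraries of the lowest depth among the 4, and the part of depth in these low values was not tested. Over all genes tested, both WT libraries with salt were listed at 0 for 112 genes and both h4.v KO libraries with salt for 92.

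Genes raised in salt-grown h4.v KO alone were fewer. Os01g0150900 (chromosome 1, 2752144 to 2761554) had 17.7 and 16.2 FPKM in h4.v KO with salt, whereas WT with salt and h4.v KO without salt were listed at 0 in both replicates and WT without salt at 0.208 and 0 FPKM. The limma adjusted p was 0.000263 with salt, and that of the interaction 0.00017. This gene starts 40722 bp beyond the end of Os01g0150000, the gene described above that h4.v KO with salt nearly lacked. These DEGs of the same region of chromosome 1 thus differed in opposite directions in the same libraries. Whether other genes lie between them was not examined. Likewise, a gene on chromosome 2 (10135285 to 10143931) had 15.9 and 14.2 FPKM in h4.v KO with salt, 0.11 and 0.498 in WT with salt and at most 0.0757 without salt (difference 3.64, limma adjusted p = 0.000686). Of all genes tested, these were the 2 with more than 5 FPKM in both h4.v KO libraries with salt and less than 1 in the other 6, whereas 37 genes had that relation in WT without salt, 9 in h4.v KO without salt and 0 in WT with salt. In 8 of the 62 higher DEGs, h4.v KO with salt lay more than 1 unit of log2 above the other 3 group means. These 3 spanned at most 1 unit, and 5 of the 8 were changed. At 26 of all genes tested, h4.v KO with salt lay above the other groups in this way.

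**Figure D3:**
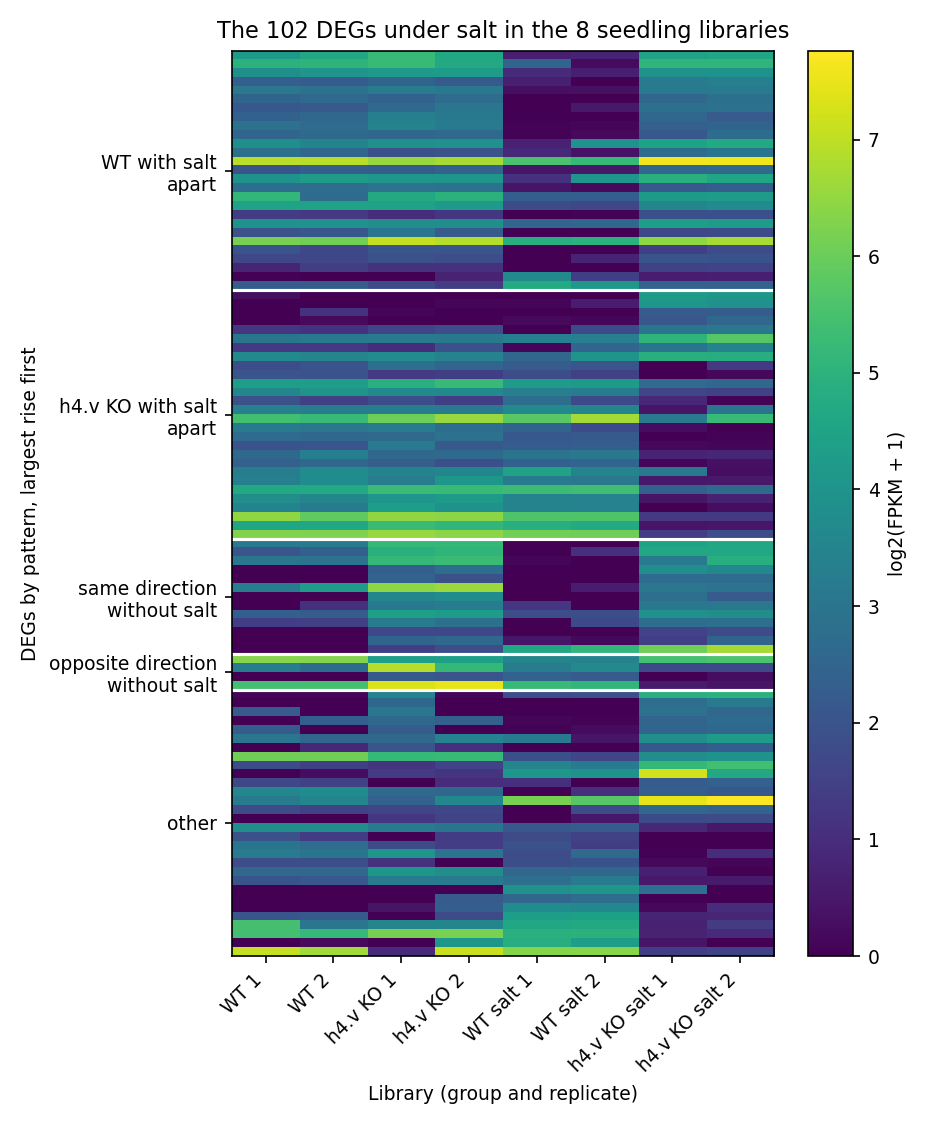
Expression of the 102 DEGs (rows, on the log2(FPKM + 1) scale) in the 8 seedling libraries (columns, group and replicate), grouped by pattern and sorted by the difference with salt. WT with salt is dark in most of the 27 rows of the top block, and h4.v KO with salt is dark in the lower rows of the 28 in the block below it.

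At other genes h4.v KO was higher than WT both with and without salt. Os03g0629800 (chromosome 3, 24046131 to 24047194) was at 0 FPKM in each WT library with salt and at 21.7 and 24.4 FPKM in h4.v KO with salt (limma adjusted p = 3.71e-05). Without salt it had 8.02 and 8.33 FPKM in WT and 35.0 and 34.8 in h4.v KO, a difference of 1.97 (limma adjusted p = 5.5e-05). The interaction was 2.62 (limma adjusted p = 0.000185). In leaves, which were not tested, it was listed at 0 in both WT libraries. It had 2.95 to 6.29 FPKM in leaves of the over-expression lines, that of canonical H4 included. In all, 13 of the 62 higher DEGs were also higher DEGs without salt, where 1.69% of all genes were, and 0 of the 40 lower DEGs were lower DEGs without salt, where 4.27% of all genes were. At an adjusted p under 0.05 without salt (limma), 4 of those 40 were lower and 10 were higher, where 14.1% and 20.0% of all genes were. At an unadjusted p under 0.05, 5 were lower, where 17.4% of all genes were. The gene at 9130980 to 9135885 on chromosome 6, picked after its values were seen, had 2.58 and 2.63 FPKM in WT and 14.3 and 13.4 in h4.v KO with salt, and 3.95 and 3.83 against 19.6 and 18.5 without salt. Its difference was 2.04 in both conditions (limma adjusted p = 0.000494 with salt). The call of 2 further genes of this kind was lost when single libraries were left out, which also leaves fewer libraries in the fit. They lie on chromosome 5 (10902163 to 10904608) and chromosome 2 (32591800 to 32593204). The former had 0.0788 and 0 FPKM in WT and 8.32 and 28.3 in h4.v KO with salt (limma adjusted p = 0.0181), and its adjusted p was 0.0681 and 0.0717 without WT with salt replicate 1 and replicate 2. The latter had 0 and 0.523 FPKM in WT and 7.39 and 6.74 in h4.v KO with salt (limma adjusted p = 0.023), and its adjusted p was 0.0783 without WT with salt replicate 1, and 0.0878 and 0.0814 without h4.v KO with salt replicate 1 and replicate 2.

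Genes were also found that no WT seedling library listed and every h4.v KO library did. There were 6 genes at 0 in the 4 WT libraries and above 1 FPKM in the 4 h4.v KO libraries, and 0 genes with the reverse relation. The longest of them, on chromosome 3 (6052902 to 6061365), had 12.9 and 11.2 FPKM in h4.v KO with salt and 4.13 and 5.95 without (limma adjusted p = 0.000606 with salt). Another, on chromosome 6 (10926731 to 10928479), had 6.31 and 3.73 FPKM with salt and 10.8 and 12.5 without (limma adjusted p = 0.00543, or 0.0993 with only the 4 libraries with salt in the fit). Of the 6, 2 lie side by side on chromosome 4, at 19636918 to 19638406 with 1.55 and 1.54 FPKM in h4.v KO with salt and at 19640800 to 19642141 with 5.59 and 5.56. The remaining 2, on chromosome 2 (22556916 to 22558121) and chromosome 9 (12957640 to 12959945), had 1.97 and 2.44 and 1.65 and 1.49 FPKM in h4.v KO with salt. The gene on chromosome 9 and the first of those on chromosome 4 differed by 1.36 and 1.35 with salt. They were changed but lay below the fold cut-off. The gene on chromosome 9 was no longer changed in 7 alternative settings, that first gene on chromosome 4 in 3 and the gene on chromosome 2 in 2.

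Among the 102 DEGs, 4 were DEGs of the opposite direction without salt. Besides Os12g0555200, a gene on chromosome 5 (27579146 to 27579822) had 4.48 and 3.73 FPKM in WT and 0 and 0.229 in h4.v KO with salt (difference -2.20, limma adjusted p = 0.00351, or 0.0646 with only the 4 libraries with salt in the fit). Without salt it was at 0 in each WT library and at 3.63 and 3.09 FPKM in h4.v KO. The opposite order was seen at a gene on chromosome 1 (39501378 to 39502910), picked after its values were seen, with 10.9 and 10.1 FPKM in WT and 42.6 and 46.4 in h4.v KO with salt (difference 1.98, limma adjusted p = 0.000343). Without salt it had 81.1 and 78.8 FPKM in WT and 19.1 and 19.6 in h4.v KO, a difference of -1.99. The interaction term had an adjusted p under 0.05 for 62 of the 102 DEGs, where 26.7% of all genes did. It contains the comparison that chose the DEGs, so nothing is read from that share.

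**Figure D4:**
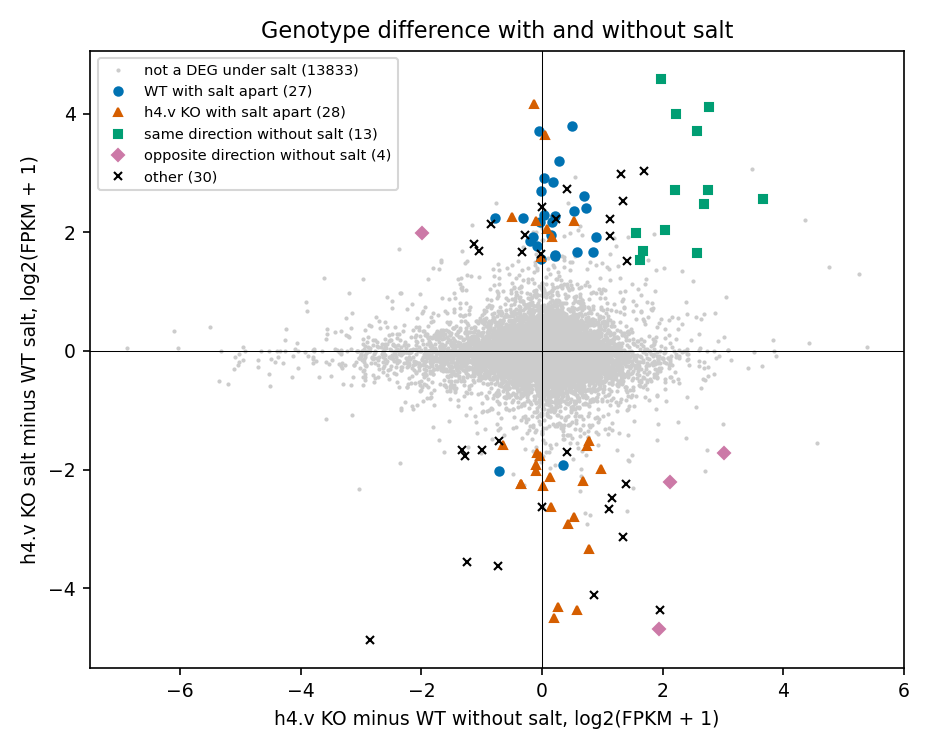
Difference between h4.v KO and WT on the log2(FPKM + 1) scale without salt (x axis) and with salt (y axis) for the genes tested, with the 102 DEGs under salt marked by pattern. The 27 DEGs in which WT with salt stands apart and the 28 in which h4.v KO with salt does lie near 0 on the x axis, and the 13 DEGs shared in direction lie in the upper right.

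Salt-induced genes with a higher level in h4.v KO included a pair of neighbours on chromosome 7, picked after their values were seen. The gene at 5741877 to 5742488 was at 0 FPKM in WT without salt, in each replicate, and at 36.7 and 37.8 FPKM in h4.v KO without salt, 246 and 252 in WT with salt and 614 and 614 in h4.v KO with salt. The gene at 5736877 to 5737483 followed the same order, with 0 and 0, 27.3 and 24.9, 151 and 153, and 383 and 427 FPKM. Their differences with salt were 1.30 and 1.41 (limma adjusted p = 0.000631 and 0.00158), below the fold cut-off. On chromosome 2, a gene at 32728445 to 32729346 had 10.6 and 7.98 FPKM in WT and 34.9 and 42.0 in h4.v KO with salt (difference 1.95, limma adjusted p = 0.0125), against 1.28 to 2.53 without salt. Its adjusted p was 0.0556 without h4.v KO with salt replicate 2 and 0.0915 with only the 4 libraries with salt in the fit. Conversely, a gene on chromosome 5 (18106229 to 18110985) had 175 and 163 FPKM in WT and 74.4 and 68.9 in h4.v KO with salt (difference -1.23, limma adjusted p = 0.00158), whereas without salt it had 42.4 and 39.6 in WT and 339 and 332 in h4.v KO. At chromosome 12 (23515075 to 23516013), WT had 196 and 198 FPKM and h4.v KO 466 and 448 with salt (difference 1.21, limma adjusted p = 0.00128), and without salt WT was the higher genotype, with a difference of -1.39. These 3 genes were likewise picked after their values were seen.

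The 331 changed genes were set beside the comparison without salt, which uses none of the same libraries. Of the 182 genes lower in h4.v KO with salt, 97 (53.3%) were changed to a higher level in h4.v KO without salt, where 20.0% of all genes were, and 32 (17.6%) to a lower level, where 14.1% of all genes were. Of the 149 genes higher with salt, 49 (32.9%) were higher without salt and 32 (21.5%) were lower. The 97 were 3.49% of the 2781 genes that were higher without salt. Under median-of-ratios scaling, 59 of the 143 genes lower with salt (41.3%) were higher without salt and 32 (22.4%) lower, and of the 185 genes higher with salt 52 (28.1%) were higher and 52 lower, where 13.3% and 17.4% of all genes were higher and lower. Among genes higher with salt, the larger count in the same direction thus depends on the scaling. The shares over all genes moved with the scaling too, and the shares in both directions lay above them under either scaling. Genes with a small spread between libraries are called more readily in both comparisons, and no test of these overlaps was made. In all, 81 genes changed in the same direction with and without salt. Among the 32 lower in both, a gene on chromosome 8 (23853339 to 23854314), picked after its values were seen, had 5.65 and 6.03 FPKM in WT and 2.15 and 2.33 in h4.v KO with salt, and 311 and 346 against 33.8 and 38.5 without salt. Its difference was -1.08 with salt (limma adjusted p = 0.0083, or 0.104 with only the 4 libraries with salt in the fit) and -3.15 without.

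The DEGs were spread over all 12 chromosomes, from 4 of 1915 genes tested on chromosome 3 (0.209%) to 13 of 652 on chromosome 11 (1.99%). Within 100 kb of each other lay 3 pairs of DEGs. Besides the pair on chromosome 1, a gene at 457195 to 461678 on chromosome 11 had 0.154 and 0.0706 FPKM in WT and 3.33 and 4.95 in h4.v KO with salt, and 69367 bp further on a gene at 531045 to 532220 had 2.51 and 2.16 against 10.8 and 12.4. Both were changed (limma adjusted p = 0.00616 and 0.0029), but not with only the 4 libraries with salt in the fit (limma adjusted p = 0.0915 and 0.0543). The third pair, also on chromosome 11 and 141 bp apart (23938240 to 23942543 and 23942684 to 23946580), was lower in h4.v KO with salt but not changed. The first of these had 23.4 and 25.2 FPKM in WT and 0.631 and 1.59 in h4.v KO (limma adjusted p = 0.0679), and the second 2.66 and 2.85 against 0.13 and 0.0772 (limma adjusted p = 0.0647, or 0.0382 with only the 4 libraries with salt in the fit). The genes on chromosome 11 are described for their position.

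Some large differences were at genes with unequal replicates, with or without salt. Both enter the spread and so the p-values. In 21 of the 39 DEGs that were not changed, the replicates of WT or of h4.v KO with salt differed by more than 1 on the log2 scale, compared with 2 of the 63 that were changed. The genes given as examples here were picked after their values were seen. The largest fall of all, at an unidentified gene on chromosome 6 (28401740 to 28404496), had close replicates with salt and unequal ones in h4.v KO without salt. It had 80.7 and 81.6 FPKM in WT and 1.74 and 1.90 in h4.v KO with salt, but 0.93 and 139 in the h4.v KO replicates without salt, which enter the shared spread (difference -4.86, limma adjusted p = 0.224). With only the 4 libraries with salt in the fit the adjusted p was 0.0165. Unequal replicates were also seen at 1765622 to 1770653 on chromosome 6, with 15.8 and 14.7 FPKM in WT and 149 and 24.5 in h4.v KO with salt (difference 1.93, limma adjusted p = 0.243). Without h4.v KO with salt replicate 2 the difference was 3.21 (limma adjusted p = 0.00402). At a gene on chromosome 12 (26960487 to 26961383) with 19.6 and 20.1 FPKM in WT and 0.753 and 0.777 in h4.v KO with salt, the limma adjusted p of 0.0301 became 0.10 to 0.107 with any 1 of the 4 libraries left out. Zeros also gave uncertain calls: a gene on chromosome 5 (1910293 to 1910914) was at 0 in each WT library with salt and at 5.94 and 7.93 FPKM in h4.v KO with salt (limma adjusted p = 0.121, or 0.0375 with only the 4 libraries with salt in the fit), but 5.17 and 0 in the h4.v KO replicates without salt.

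With each of the 4 libraries with salt left out in turn, 67 of the 102 DEGs remained DEGs each time, 41 higher and 26 lower. Assigning every overlapping locus to a gene, in place of those that lie mainly in it, kept 101 of the 102, and summing the FPKM of a gene's loci without weights kept 94. Among the 30 genes named by rule, the direction of 2 depended on how loci were counted. One, on chromosome 7 (4263172 to 4265561), had 39.0 and 40.4 FPKM in WT and 4.37 and 5.42 in h4.v KO with salt (difference -2.79, limma adjusted p = 0.000269), but the difference was 0.93 (limma adjusted p = 0.0155) when the FPKM of its loci were summed without regard to how much of the gene they covered. The other, on chromosome 1 (170798 to 173144), had 0.603 and 0 FPKM in WT and 7.94 and 9.25 in h4.v KO with salt (difference 2.92, limma adjusted p = 0.0054), but -0.66 (limma adjusted p = 0.886) with every overlapping locus counted. Both are counted among the DEGs but were not used as examples above.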

How the data were processed

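Per the study's methods and labels, Trimmomatic, HISAT2 (genome IRGSP1.0) and Cufflinks 2.2.1 were run library by library. The deposited values are FPKM per locus that Cufflinks assembled, without read counts. Annotated spans were pooled from the tables of all 16 libraries, and spans of at least 200 bp not nested by 50% in a longer span gave 30384 genes. BEDTools 2.31.1 assigned a locus to a gene when at least 50% of it lay in that gene and it covered no second gene by 50%, and 6023 genes under other loci were left out. Of the FPKM with salt, 88.3% to 89.8% was assigned. The FPKM of all loci of a gene were added, each weighted by how much of the gene it overlaps. This rests on Cufflinks' assembly in each library, so a gene can be listed at 0 where no locus was assembled.

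The test was limma 3.58.1 (R 4.3.3, 1 mean per group, eBayes with trend) on log2(FPKM + 1), for genes averaging 1 FPKM or more across the seedling libraries. The 8 libraries share 1 estimate of the spread. The pseudocount of 1 understates differences of low genes. On simulated data, the fit called 100 of 100 genes changed by 3 and 98 of 100 changed by 2 on the log2 scale. It also called 35 of 13735 unchanged genes. The changed genes were drawn from those with a mean log2(FPKM + 1) over 2, with normal noise and no loci left unassembled. Recovery was thus not tested for low genes or for zeros, which many of the DEGs hold in 1 genotype. Count-based tests were not run. The genes named by rule are the 15 largest rises and the 15 largest falls among changed DEGs whose libraries did not overlap. Not all of these 30 are described. Also described are genes at 0 in both libraries of a genotype with at least 5 FPKM in both of the other. Further ones are genes that a count or a position in the text singles out, and genes said to be picked after their values were seen. The members and lists were chosen with earlier results of these data known. Gene lists and marker lists by product description could not be applied, because identifiers are not paired with descriptions in the tables used here. Tables were handled in Python 3.11.15 with pandas 2.3.3 and NumPy 2.4.6, and figures drawn with matplotlib 3.10.9.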

Additional observations from a re-analysis of the deposited data

Results flagged for a closer look

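The genotype difference with salt differed from that without salt by the interaction term (limma adjusted p under 0.05) for 62 of the 102 DEGs. Of all genes tested, 26.7% did so. It also did for 25 of the 30 genes named by rule. Both sets were chosen by a comparison that is part of this term, so nothing is read from these counts.

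Outside the genes tested, a 93 bp span on chromosome 4 (18749068 to 18749160) held 31968 FPKM in h4.v KO with salt replicate 2, 6.01% of the FPKM of that library. The highest locus overlapping it had 32.0 FPKM in h4.v KO with salt replicate 1 and 46.0 and 43.9 in WT with salt. Its part in the other values of that library was not tested.

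The leaf libraries, which entered no comparison, also list genes that no WT seedling library did. Of the 6 genes at 0 in all 4 WT seedling libraries and above 1 FPKM in all 4 of h4.v KO, none was listed above 0 in either WT leaf library, and 4 exceeded 1 FPKM in leaves of an over-expression line. The gene on chromosome 6 (10926731 to 10928479) was highest in OE-H4.V, at 35.1 and 27.8 FPKM, followed by OE-H4 with 13.1 and 14.0 and OE-H4.Vs with 0 and 0.48. That on chromosome 4 (19636918 to 19638406) had 15.3 and 11.7 FPKM in OE-H4, 6.62 and 13.9 in OE-H4.Vs and 7.47 and 0 in OE-H4.V. On chromosome 3 (6052902 to 6061365) every over-expression leaf library exceeded 1 FPKM. The values were 5.15 and 2.18 in OE-H4.Vs, 3.86 and 1.12 in OE-H4 and 2.56 and 1.34 in OE-H4.V. The gene on chromosome 9 (12957640 to 12959945) had 3.28 and 3.52 FPKM in OE-H4.Vs and was listed at 0 in the other 6 leaf libraries. Some other genes higher in h4.v KO in both conditions were also at 0 in both WT leaf libraries. The gene on chromosome 6 (9130980 to 9135885) had 10.2 to 23.8 FPKM in the over-expression leaf libraries. On chromosome 5 (10902163 to 10904608) these had 15.1 to 39.7, except OE-H4 replicate 2 at 0. Of the 6, those on chromosome 4 (19640800 to 19642141) and chromosome 2 (22556916 to 22558121) were at 0 in every leaf library. These differences between leaf lines were not tested.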

How the results depend on the processing

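The count of 102 DEGs was 183 with a pseudocount of 0.1 and 30 with a pseudocount of 5, 51 with a mean of at least 5 FPKM, 240 with an absolute log2 difference over 1 and 63 with an adjusted p under 0.05. It was 166 to 186 with 1 of the 4 salt libraries left out, where the lone library is assumed to vary like the other groups, and 76 to 86 of the 102 were kept (76 without WT with salt replicate 1). The 331 changed genes were 59 with only the 4 salt libraries in the fit, where 8 of the 30 genes named by rule lost their call. Under every setting run, 17 of the 102 remained DEGs. Replicate numbers do not pair the samples (r = 0.00545 between the replicate differences of the 2 groups), and a replicate block gave 155 changed genes, 106 DEGs and 24 of 30 interactions among the genes named by rule. Of these 30, 2 reversed, that on chromosome 7 (4263172 to 4265561) to 0.93 under a plain sum of loci and that on chromosome 1 (170798 to 173144) to -0.66 with every overlapping locus counted, an alternative chosen after seeing the data. The causes were not tested. The gene-list alternative was not run. With 2 libraries a group and no counts, differences of low genes could be missed.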
